A study of Mus musculus with 12 samples.

Results

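The 10 genes described here are ligands, receptors and co-receptors of vascular endothelial growth factor (VEGF) signalling and 2 genes that mark endothelial tip cells. The ligands are Vegfa, Vegfb, Vegfc and Pgf, the receptors Kdr and Flt1, the co-receptors Nrp1 and Nrp2, and the tip cell genes Esm1 and Apln. They were chosen by symbol, and all 10 were found among the 27825 genes of the deposited table. Each passed the filter of a mean of at least 10 normalized counts, as did 22238 genes in all.

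RNA was sequenced from sorted endothelial cells of male ROSA26-eYFP+/+ Cdh5-CreERT2+ mice. Every animal carried this genotype and ate tamoxifen food from 6 weeks of age for 2 weeks, so that Cre, driven by Cdh5, turned on a yellow fluorescent reporter. From 8 weeks of age they ate normal chow (5.8% fat) or a high fat diet (60% fat) for 12 to 13 weeks. Mesentery and epididymal fat were digested with the transcription blocker actinomycin D, the tissue of 6 mice went into each sample, and viable fluorescent cells were taken by flow sorting. The 4 groups, mesentery on chow, mesentery on high fat diet, epididymal fat on chow and epididymal fat on high fat diet, held 3 libraries each, named A, B and C in the titles. The protocol speaks of 2 independent replicates, and how these relate to the 3 letters is not stated. The p-values below therefore measure only the spread between these libraries, which may be partly technical.

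VEGF ligands are secreted proteins that bind receptor tyrosine kinases on endothelial cells. VEGFA acts mainly through VEGF receptor 2, encoded by Kdr, which drives proliferation, migration and permeability. VEGF receptor 1, encoded by Flt1, binds VEGFA, VEGFB and placental growth factor (encoded by Pgf), signals weakly and has a soluble form that holds ligand back. VEGFC binds VEGF receptor 3 and, after processing, VEGF receptor 2. Neuropilins present ligands to the kinases and also bind class 3 semaphorins. Tip cells are the endothelial cells that lead a growing sprout, and ESM1 (endocan) and apelin are secreted products by which they are often recognised. In adipose tissue VEGF signalling is known for its part in capillary density and in the passage of fatty acids across the vessel wall.

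The libraries held 8348897 to 25397963 reads, and 3 reads corresponded to 2.12 to 4.22 normalized counts. All 12 of 12 pan-endothelial markers had reads in every library, and Cdh5, which encodes VE-cadherin, stood at 2172 to 4822 normalized counts. Markers of other cells were present too, and several of them differed between the tissues. Summed over 8 markers each, adipocyte markers reached 64126 to 86844 normalized counts in epididymal fat on chow but 4354 to 14777 in the other 3 groups. Cfd alone gave 41784.2 to 58630.5 of the sums in epididymal fat on chow. Fibroblast markers summed to 18859 to 62836 in epididymal fat and 4642 to 10114 in mesentery, and pericyte and smooth muscle markers to 6384 to 24559 against 1389 to 4108. Macrophage markers summed to 128108 to 322344 in epididymal fat on high fat diet and to 1276 to 80935 elsewhere, with Adgre1 at 0 in at least 1 library. Pancreatic acinar markers summed to 20803 to 146747 in mesentery and to 183 to 552 in epididymal fat, with 5 of the 6 at 0 in at least 1 library. Red blood cell markers summed to 42178 to 59418 in epididymal fat and to 218 to 507 in mesentery. Lymphatic markers summed to 22666 to 37637 in epididymal fat and 1332 to 13032 in mesentery on chow, with 5 of 7 called higher and 1 (Flt4) lower, and to 11830 to 18154 and 2818 to 4759 on high fat diet, with 0 called higher and Flt4 lower; Prox1 was at 0 in at least 1 library. The mitochondrial share of reads also differed without overlap between the tissues, at 5.67 to 20.6% in mesentery and 2.50 to 3.73% in epididymal fat on chow, and 5.96 to 10.1% and 3.07 to 5.94% on high fat diet. The part of these differences in the tissue results below was not tested. Library C of mesentery on chow stood apart from A and B, with a lymphatic marker sum of 13032 against 1332 and 1522 and an acinar sum of 20803 against 146747 and 119772. Most of that lymphatic sum was Ccl21a, at 11665 against 322 and 497. Reln (279 against 15.9 and 3.58) and Mmrn1 (106 against 17.1 and 18.8) were also higher in C, whereas Flt4 was not (848 against 941 and 953). Epididymal libraries on opposite diets deviated together where both had numbers 50 to 53 or both 87 and 88 (correlations of 0.436 to 0.838) and in opposite directions otherwise (-0.675 to -0.625); what the numbers stand for is not stated. In bulk RNA, fewer cells of a type and less RNA per cell cannot be told apart.

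Promoters are shown for the 3 genes with the lowest levels in epididymal fat relative to mesentery and for the gene with the highest, so that the sequence can be read beside the values. Each line holds the 250 bases before a RefSeq transcript start, on the gene's own strand and on build GRCm38.p6, with capitals marking every ETS core (GGAA, or TTCC on the other strand). All 10 members had an entry, with 12 windows in all. Kdr lies on the minus strand, and its window is chr5:75978456-75978705. The Flt1 window, also on the minus strand, is chr5:147726012-147726261. Esm1 lies on the plus strand at chr13:113209409-113209658, and the 2 Pgf starts on the minus strand give chr12:85177314-85177563 and chr12:85175983-85176232.
Kdr: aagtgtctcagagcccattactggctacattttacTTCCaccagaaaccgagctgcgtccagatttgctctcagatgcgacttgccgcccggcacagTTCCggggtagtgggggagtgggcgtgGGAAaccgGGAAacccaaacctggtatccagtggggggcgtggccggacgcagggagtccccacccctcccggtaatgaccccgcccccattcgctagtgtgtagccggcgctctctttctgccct
Flt1: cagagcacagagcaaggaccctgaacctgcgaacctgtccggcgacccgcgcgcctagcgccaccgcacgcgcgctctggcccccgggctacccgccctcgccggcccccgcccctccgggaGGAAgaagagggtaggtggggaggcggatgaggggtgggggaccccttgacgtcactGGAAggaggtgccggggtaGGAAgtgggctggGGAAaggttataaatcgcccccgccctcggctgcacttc
Esm1: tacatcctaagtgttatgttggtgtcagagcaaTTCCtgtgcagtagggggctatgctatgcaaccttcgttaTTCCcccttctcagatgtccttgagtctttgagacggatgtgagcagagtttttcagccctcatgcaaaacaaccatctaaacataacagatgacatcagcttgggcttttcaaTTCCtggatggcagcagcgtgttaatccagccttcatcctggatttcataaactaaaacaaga
Pgf, upstream start: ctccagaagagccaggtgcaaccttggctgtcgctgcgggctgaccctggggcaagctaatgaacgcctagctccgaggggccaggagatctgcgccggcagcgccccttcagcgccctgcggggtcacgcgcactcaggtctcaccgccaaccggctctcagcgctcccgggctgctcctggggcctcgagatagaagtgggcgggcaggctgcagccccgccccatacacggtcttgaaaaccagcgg
Pgf, downstream start: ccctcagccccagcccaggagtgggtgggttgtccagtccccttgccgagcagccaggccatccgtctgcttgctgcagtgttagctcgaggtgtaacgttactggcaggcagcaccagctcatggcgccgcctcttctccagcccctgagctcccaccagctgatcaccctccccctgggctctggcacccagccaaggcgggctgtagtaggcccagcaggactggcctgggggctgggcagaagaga

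Kdr and Flt1 each held 4 ETS cores and Esm1 held 3, whereas neither Pgf window held one. The core is short and was found in 93.4% of 32851 RefSeq promoter windows of that length, with a median of 3, and 33.4% of windows held 4 or more. Among the other members Nrp1 held 4, Apln 3, Vegfb, Vegfc and Nrp2 1 each, and the Vegfa windows 6 and 2. A hypoxia response core (ACGTG, or CACGT on the other strand) was present in 1 of the 12 windows, the one of Vegfa with 2 ETS cores, and in 16.6% of all promoter windows. That Vegfa window, chr17:46025164-46025413 on the minus strand, lies downstream of the other Vegfa start and so inside the gene. The window before the upstream Vegfa start, chr17:46032378-46032627, held 0 hypoxia cores. These matches describe letters and not bound sites.

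The members differed mainly between the tissues. On chow, endothelial cells sorted from epididymal fat had lower Esm1, Flt1, Kdr and Nrp1 than those from mesentery and higher Pgf and Vegfb. Esm1, Flt1, Kdr and Nrp1 were lower again on high fat diet, and Pgf was higher. In limma fits over all genes tested, 6 of the 10 members passed the adjusted threshold of 0.05 on chow, 2 higher and 4 lower, where 12.8% of all genes passed, 7.32% higher and 5.47% lower. For the tissues on high fat diet 5 members passed, 1 higher and 4 lower, against 8.34% of all genes, 4.91% higher and 3.43% lower. Groups of 3 libraries did not overlap for 6 members on chow and 7 on high fat diet, against 28.7% and 26.4% of all genes. Without any 1 library the number called was 4 to 6 on chow and 3 to 5 on high fat diet, 3 being reached without library C of epididymal fat or library B of mesentery on high fat diet. The median log2 change of the members was -0.32 on chow and -0.99 on high fat diet, while that of all genes tested was -0.08 and 0.06.

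**Figure D1:**
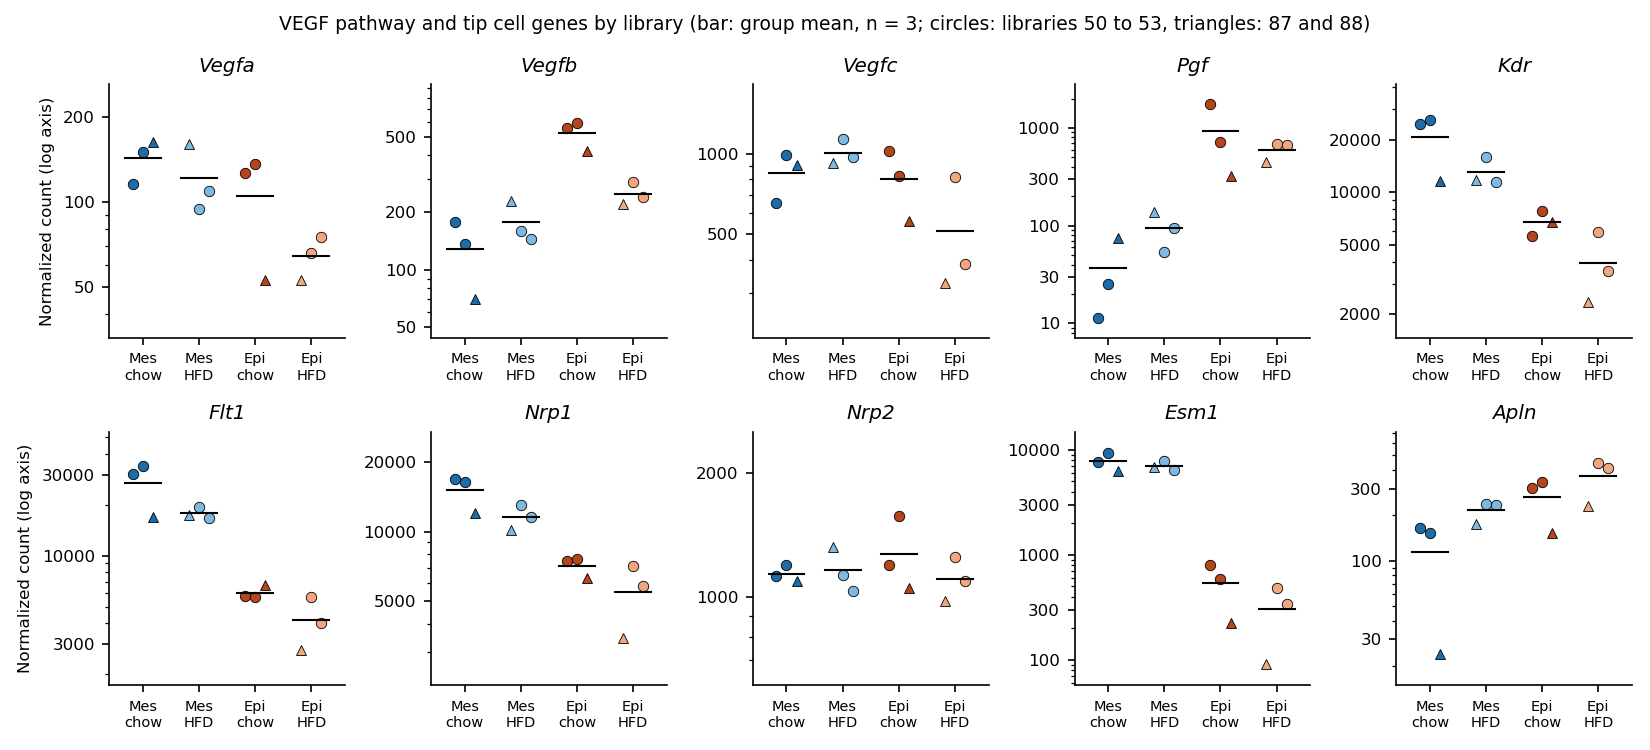
Normalized counts of the 10 genes (log axis) in each of the 12 libraries, by tissue and diet; bars are group means over 3 libraries, circles are libraries with numbers 50 to 53 and triangles those numbered 87 and 88. Kdr, Flt1, Nrp1 and Esm1 are lower in all epididymal fat libraries than in the mesentery libraries of the same diet, and Pgf is higher.

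Pgf, the ligand of VEGF receptor 1, showed the largest rise of the 10 genes. In mesentery its normalized counts were 11.4, 25.1 and 74.6 in chow libraries A, B and C and 137, 54.1 and 93.9 on high fat diet. In epididymal fat they were 1743, 714 and 321 on chow and 447, 678 and 677 on high fat diet. No mesentery library reached the lowest epididymal one, although the chow libraries of each tissue spread widely. The chow means were 37.0 ± 33.3 and 926 ± 735 (SD, n = 3 each), a ratio of 25.0. On log2(normalized count + 1), the scale of every change given here, the difference on chow was 4.67 (SE 0.650, adjusted p = 0.000468 by limma). Without 1 library the chow value ran from 4.05 (without A of either tissue) to 5.27 and 5.36 (without C of epididymal fat or of mesentery), all called. Pgf was 2.72 higher on high fat diet (SE 0.650, adjusted p = 0.0215), a ratio of means of 6.32. That second call was lost without library B of mesentery on high fat diet (adjusted p = 0.105), without library B of epididymal fat (0.0687) or without its library C (0.0940); over all 16 alternatives adjusted p ran from 0.000773 to 0.105. Fibroblast and pericyte marker sums were higher in epididymal fat in the same libraries, and their part in the Pgf difference was not tested.

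Vegfb, a ligand of VEGF receptor 1 known for its link to fatty acid uptake, was high in 1 group only. Epididymal fat on chow had 553, 586 and 419.7 normalized counts, and on high fat diet 221, 287 and 242. The mesentery had 179, 137 and 70.4 on chow and 230.1, 161 and 144 on high fat diet. Every chow library of epididymal fat lay above all 9 others. On chow, Vegfb in epididymal fat exceeded that in mesentery by 2.09 (SE 0.324, adjusted p = 0.000983), and this call held under all 16 alternatives. The tissue groups overlapped on high fat diet, and the change was 0.51 (adjusted p = 0.438; 95% interval -0.19 to 1.21). With libraries rescaled to the pan-endothelial markers that change was 1.13 (adjusted p = 0.0188; range over alternatives 0.0188 to 0.706). The interaction, the diet change in epididymal fat minus that in mesentery, was -1.58 (SE 0.458) with an unadjusted p of 0.00415 and an adjusted p of 0.571, so the tissue difference was not shown to depend on diet. The adipocyte marker sum was likewise high in the 3 chow libraries of epididymal fat alone, with 41784.2 to 58630.5 of it from Cfd. On chow 7 of the 8 markers were called higher than in mesentery (12.8% of all genes called), but Lipe overlapped (828 to 890 against 757 to 960). In epididymal fat 7 were lower on high fat diet without overlap (13.5% of all genes not overlapping). Lep was not, at 924 to 1136 on chow and 467 to 1531 on high fat diet. The part of adipocyte RNA in the Vegfb level was not tested.

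Vegfa and Vegfc, the main ligands of VEGF receptors 2 and 3, passed no tissue test. Vegfa was low throughout, at 52.8 to 163 normalized counts over the 12 libraries. Its change in epididymal fat was -0.54 on chow (95% interval -1.39 to 0.31) and -0.88 on high fat diet (adjusted p = 0.223). The 3 epididymal libraries on high fat diet, at 52.8, 66.1 and 75.0, lay below the lowest mesentery library at 94.2. Vegfc had 652, 984 and 902 normalized counts in mesentery on chow and 1022, 823 and 561 in epididymal fat on chow, ranges that overlap. On high fat diet it had 921, 1135 and 969 in mesentery and 326, 819 and 386 in epididymal fat, which do not. The chow change of Vegfc was -0.10 (95% interval -0.78 to 0.59) and that on high fat diet -1.10, just outside the threshold (adjusted p = 0.0505). Of the 16 alternatives 6 called the latter, with adjusted p from 0.00568 to 0.207.

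Kdr, which encodes VEGF receptor 2, was lower in epididymal fat under both diets. Mesentery had 24555, 25939 and 11608 normalized counts on chow and 11799, 15882 and 11410 on high fat diet. Epididymal fat had 5655, 7837 and 6794 on chow and 2347, 5946 and 3518 on high fat diet. The tissues did not overlap on either diet, but mesentery library C on chow stood with the high fat diet libraries and well below A and B. The mean was 3.06-fold lower in epididymal fat on chow, a log2 change of -1.54 (SE 0.356, adjusted p = 0.0124). The high fat diet mean was 3.31-fold lower, a change of -1.81 (SE 0.356, adjusted p = 0.00706), called under all 16 alternatives. The chow call was lost without library A of epididymal fat (adjusted p = 0.0621) and without A (0.0612) or B (0.0533) of mesentery; its 16 alternatives ran from 8.04e-05 to 0.0621.

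Flt1, which encodes VEGF receptor 1, was lower by a larger amount. It stood at 30275, 33715 and 17039 normalized counts in mesentery on chow and 17443, 19502 and 16615 on high fat diet. In epididymal fat it stood at 5755, 5738 and 6691 on chow and 2757, 5697 and 3978 on high fat diet. The lowest mesentery library was more than 2 times the highest epididymal one. Relative to mesentery, the epididymal mean was 4.46-fold lower on chow, a log2 change of -2.10 (SE 0.294, adjusted p = 0.000485). The high fat diet mean was 4.31-fold lower, a change of -2.17 (SE 0.294, adjusted p = 0.000576). Both calls held under all 16 alternatives.

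Among the co-receptors Nrp1 was lower in epididymal fat and Nrp2 passed neither test. Nrp1, which binds VEGFA and SEMA3A, had 16973, 16367 and 12087 normalized counts in mesentery on chow and 10137, 13081 and 11550.5 on high fat diet. Epididymal fat had 7471, 7598 and 6306 on chow and 3466, 7132 and 5797 on high fat diet. These groups did not overlap between tissues, and the ratio of means was 2.13-fold lower on chow (a change of -1.08, SE 0.261, adjusted p = 0.0156). The corresponding ratio on high fat diet was 2.12-fold lower (-1.14, SE 0.261, adjusted p = 0.0169). The chow call of Nrp1 was lost by edgeR on the recovered reads (adjusted p = 0.0664) and without library A of epididymal fat (0.0504), A of mesentery (0.0712) or B of mesentery (0.0548), in a range of 0.000157 to 0.0712. The high fat diet call was lost by edgeR (0.0983) and without library C of epididymal fat (0.0505) or B of mesentery (0.0846), in a range of 0.000217 to 0.0983. Nrp2, which binds VEGFC and is known from veins and lymphatic vessels, stood at 976 to 1575 normalized counts in all 12 libraries. Its tissue change was 0.15 on chow (95% interval -0.25 to 0.54) and -0.07 on high fat diet (-0.46 to 0.32), the latter 0.55 with an adjusted p of 0.0385 after rescaling to the pan-endothelial markers.

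Esm1, a proteoglycan secreted by tip cells and induced by VEGFA, fell furthest. Mesentery libraries had 7621, 9292 and 6337 normalized counts on chow and 6826, 7789 and 6421 on high fat diet. Epididymal libraries had 798, 585 and 227 on chow and 92.2, 487 and 339 on high fat diet. Every mesentery library was far above every epididymal one. The mean was 14.4-fold lower in epididymal fat on chow (a log2 change of -4.01; SE 0.526, adjusted p = 0.000291) and 22.9-fold lower on high fat diet (-4.81, SE 0.526, adjusted p = 0.000103). Both calls held under all 16 alternatives, and without library A of epididymal fat the high fat diet change was -4.10.

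Apln, the apelin gene, leaned the other way. Its normalized counts were 165, 153 and 23.9 in mesentery on chow and 305, 334 and 153 in epididymal fat on chow. High fat diet libraries had 176, 238 and 233 in mesentery and 230.5, 448 and 413 in epididymal fat. The tissue groups overlapped on both diets. The chow change of 1.54 (SE 0.593) had an adjusted p of 0.115 and rested partly on the low mesentery library C, without which it was 0.65 (adjusted p = 0.297). Of the 16 alternatives 5 called it, in a range of 0.00879 to 0.322. Its high fat diet change was 0.71 (adjusted p = 0.609), and 1 alternative called it, libraries numbered 50 to 53 alone, at 0.86 (adjusted p = 0.0258; range 0.0258 to 0.860). Rescaled to the pan-endothelial markers it was 1.33 (adjusted p = 0.0968).

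**Figure D2:**
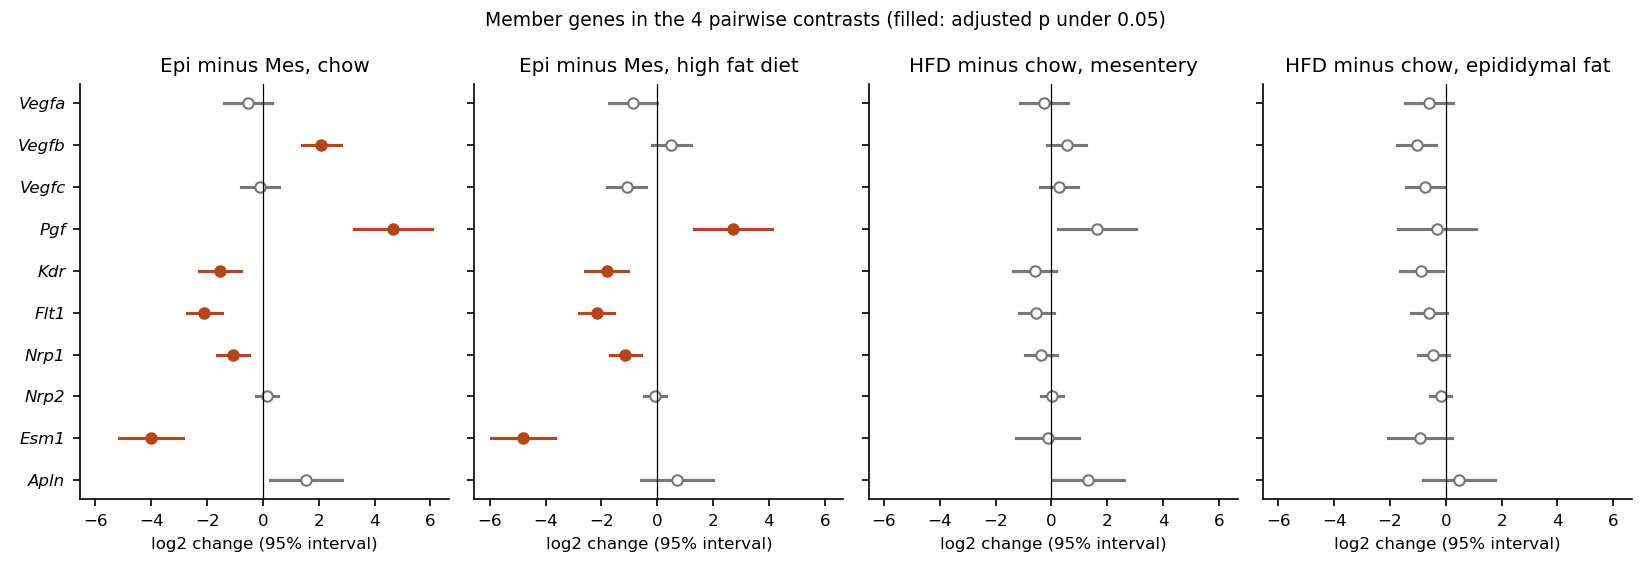
Log2 change with its 95% interval (limma) for each of the 10 genes in 4 contrasts: diet within mesentery, diet within epididymal fat, and epididymal fat minus mesentery on each diet; filled points passed the adjusted threshold of 0.05. The 6 chow and 5 high fat diet tissue calls lie far from 0, and none of the diet changes passed.

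Part of the pan-endothelial markers moved with these differences. The pan-endothelial marker sum was 86017 to 102673 normalized counts in epididymal fat on chow and 48559 to 92877 on high fat diet, against 112953 to 152726 and 107804 to 123865 in mesentery. Of the 12 markers 1 rose and 5 fell on chow, with a median change of -0.61, and 1 rose and 6 fell on high fat diet, with a median of -0.87. The marker that rose was Cldn5. On chow it had 555 to 1383 normalized counts in mesentery and 12312 to 20509 in epididymal fat. On high fat diet it had 1300 to 6144 and 12555 to 22263. Cdh5, the gene whose promoter drives Cre, differed by 0.02 on chow and 0.06 on high fat diet. With libraries rescaled to the 12 markers, Esm1, Flt1, Kdr and Nrp1 were still called lower, with changes of -3.79, -1.88, -1.32 and -0.85 on chow and -4.19, -1.54, -1.19 and -0.52 on high fat diet. Cldn5 counted in this scale like each other marker. The rescaling was not repeated without Cldn5, so its part in these calls was not tested. That rescaling moved the median change of all genes from -0.08 to 0.13 on chow and from 0.06 to 0.66 on high fat diet. It raised the share of higher genes among all calls from 57.2% to 77.9% on chow and from 58.9% to 93.7% on high fat diet, while rescaling to the same total gave 67.3% and 35.3%. Within libraries numbered 50 to 53, with 2 per group, the same 4 genes were again called lower and Pgf higher on both diets.

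Ratios within a library, of member pairs and of members to the marker Cdh5, do not depend on its scaling. They were chosen after their values had been seen and are given as descriptions. Flt1 was 1.23 to 1.47 times Kdr in mesentery on chow and 1.23 to 1.48 times on high fat diet. In epididymal fat it was 0.732 to 1.02 times on chow and 0.958 to 1.17 times on high fat diet, below every mesentery library. The ratio of Nrp1 to Nrp2 was 11.1 to 15.1 and 7.67 to 11.6 in mesentery on chow and high fat diet, and 4.82 to 6.26 and 3.55 to 5.70 in epididymal fat. Pgf was 0.0980 to 0.856 times Vegfa over the mesentery libraries and 5.24 to 13.7 times over the epididymal ones. Esm1 was 1.88 to 2.91 times Cdh5 in mesentery and 0.0424 to 0.251 times in epididymal fat. Kdr was 3.97 to 6.07 times Cdh5 in mesentery, 1.76 to 1.80 times in epididymal fat on chow and 1.08 to 1.37 times there on high fat diet. Cdh5 itself hardly differed between the tissues. Of the 12 pan-endothelial markers 5 were called lower on chow and 6 on high fat diet, and 1 higher on each. Ratios to the lower markers were not computed, so the 2 tissue differences relative to Cdh5 hold for this reference only. With 3 libraries against 3 the smallest exact permutation p is 0.1 (two-sided), and over the 28 comparisons made this becomes 0.165 after Benjamini-Hochberg adjustment, so no ratio could pass.

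**Figure D3:**
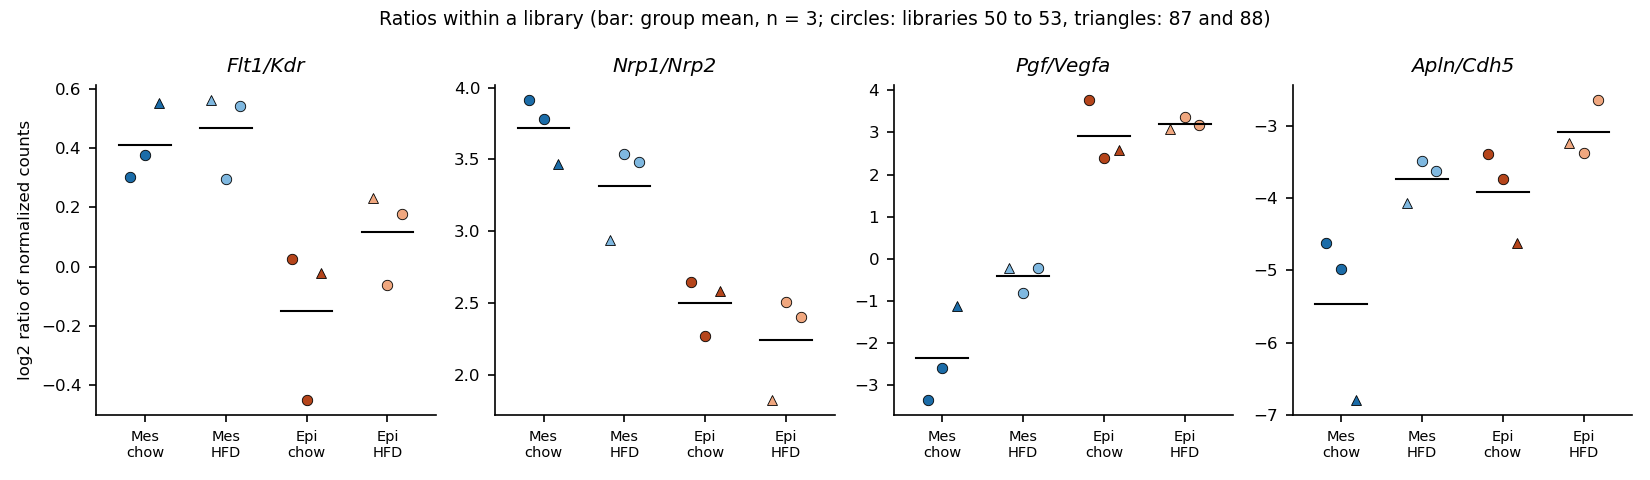
Log2 ratios of normalized counts within each of the 12 libraries for Flt1 to Kdr, Nrp1 to Nrp2, Pgf to Vegfa and Apln to Cdh5; bars are group means over 3 libraries. The first 3 ratios separate the tissues on both diets, and the ratio of Apln to Cdh5 is higher on high fat diet within each tissue.

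No member passed the adjusted test for diet in either tissue. In mesentery limma called 0 of 10, against 0.0135% of all genes. There 2 members, Pgf (1.63) and Apln (1.32), had unadjusted p under 0.05, at 0.0261 and 0.0444, against 6.15% of all genes. In epididymal fat limma called 0 of 10, against 0.549% of all genes. There 3 members, Vegfb, Kdr and Vegfc, had unadjusted limma p under 0.05, at 0.00649, 0.0289 and 0.0388, against 6.94% of all genes. edgeR on the recovered reads called 0 in both tissues, and DESeq2 called 0 in mesentery and 1, Vegfb, in epididymal fat. Groups did not overlap for 1 member in mesentery, Apln, and for 2 in epididymal fat, Flt1 and Vegfb, against 9.61% and 13.5% of all genes.

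In mesentery the intervals of the diet change were wide. Kdr changed by -0.60 (95% interval -1.36 to 0.17) and Flt1 by -0.54 (-1.18 to 0.09), with library C on chow already at the level of the high fat diet group. Without that library the values were -0.97 for Kdr (adjusted p = 0.351) and -0.84 for Flt1 (adjusted p = 0.325). Esm1 differed by -0.13 (-1.27 to 1.00). Pgf was 2.32 higher without that chow library (adjusted p = 0.185), and Apln 0.42 higher (adjusted p = 0.804), so the size of the Apln difference rested on it. The remaining 5 members lay between -0.38 (Nrp1) and 0.54 (Vegfb).

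In epididymal fat 9 of the 10 values were below 0 on high fat diet, with a median of -0.60 against 0.10 for all genes tested. So were 11 of the 12 pan-endothelial markers, with a median of -0.49, and the direction was thus not particular to the members. Vegfb had the smallest unadjusted p, with means of 519.7 ± 88.2 on chow and 250.3 ± 33.7 on high fat diet (SD, n = 3 each). The log2 change of Vegfb was -1.04 (SE 0.324, limma adjusted p = 0.262), and DESeq2 gave -1.05 with an adjusted p of 0.0494, in a range of 0.0494 to 0.808 over its 16 alternatives. Adipocyte markers fell in the same contrast, with 3 of 8 called lower and a median of -1.70. Kdr differed by -0.87 (-1.64 to -0.10), Flt1 by -0.61 (-1.24 to 0.03), Esm1 by -0.93 (-2.06 to 0.21) and Apln by 0.48 (-0.80 to 1.76). Library A on high fat diet was the lowest of the group for Kdr, Flt1, Nrp1 and Esm1 and also had the lowest pan-endothelial sum, 48559. Without it the Kdr value was -0.55 and the Esm1 value -0.22. After rescaling to the pan-endothelial markers, which moved the median of all genes to 0.57, Kdr stood at -0.38, Flt1 at -0.12, Nrp1 at 0.05 and Vegfb at -0.56, none of them called. The part of the pan-endothelial marker level in these values was not tested beyond this rescaling.

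Of the 3 ratios to Cdh5, that of Apln was the one higher on high fat diet in both tissues without overlap. It was 0.00901 to 0.0408 on chow and 0.0596 to 0.0889 on high fat diet in mesentery. In epididymal fat it was 0.0406 to 0.0959 on chow and 0.0967 to 0.161 on high fat diet. Both differences had the smallest exact permutation p the design allows, 0.1 (adjusted p = 0.165). Apln itself overlapped between the diets in epididymal fat, at 153 to 334 normalized counts on chow and 230.5 to 448 on high fat diet. Cdh5 had 4046, 4822 and 2657 in mesentery on chow and 2948, 2680 and 2876 on high fat diet. In epididymal fat Cdh5 had 3177, 4456 and 3778 on chow and 2172, 4627 and 2560 on high fat diet. The part of Cdh5 in these ratio differences was not tested.

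The change with diet did not differ detectably between the tissues. Limma called 0 of 10 interactions, as did edgeR and DESeq2, where 0.0045% of all genes passed. With unadjusted p under 0.05 there were 2 members, Vegfb at 0.00415 and Vegfc at 0.0446, against 4.71% of all genes. All 10 values lay below 0 with the deposited scaling, with a median of -0.57 against 0.11 for all genes, and so did 11 of the 12 pan-endothelial markers, with a median of -0.27. Under at least 1 of the 21 alternatives 6 of the 10 turned above 0, reaching 0.56 for Flt1 and 0.37 for Kdr within libraries numbered 50 to 53 and 0.34 for Nrp1 after rescaling to the pan-endothelial markers, so no common direction is read from them. The 2 tissue contrasts share no library, and the members' values in them are plotted against each other.

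**Figure D4:**
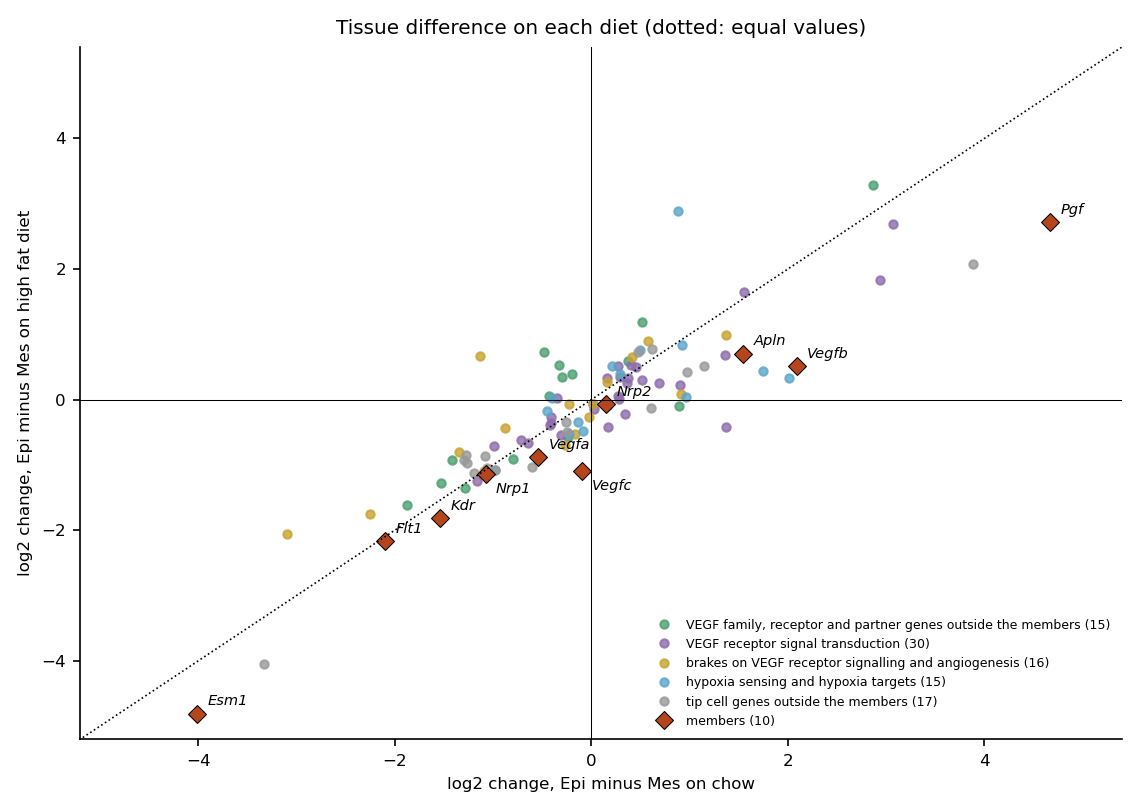
Log2 change between epididymal fat and mesentery on high fat diet (vertical axis) against that on chow (horizontal axis) for the 10 genes (diamonds) and the 93 tested genes of 5 pathway lists described further on (circles); the dotted line marks equal values. Flt1, Kdr and Nrp1 lie near the line, and Pgf and Vegfb lie below it, with changes of 2.72 against 4.67 and of 0.51 against 2.09.

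To compare genes with one another, normalized counts were divided by merged exon length (GENCODE M21, which need not be the annotation used for counting). In mesentery Esm1 led, at 3696 ± 707 per kilobase on chow and 3344 ± 335 on high fat diet. It was followed on chow by Kdr (2292 ± 875), Flt1 (2000 ± 652) and Nrp1 (1548 ± 272), whose neighbouring ranges overlapped. Vegfc was the most abundant ligand in mesentery on chow, at 346 ± 70.5 per kilobase, against 80.2 ± 34.1 for Vegfb, 33.4 ± 5.69 for Vegfa and 12.8 ± 11.5 for Pgf. In epididymal fat on chow Kdr (749 ± 121) and Nrp1 (728 ± 72.8) led with overlapping ranges, Flt1 followed at 449 ± 40.4, and Esm1 was in the 7th place at 256 ± 138. There Vegfc (327 ± 94.5), Vegfb (324 ± 54.9) and Pgf (319 ± 253) could not be ordered beyond their spread. On high fat diet all neighbouring ranges in epididymal fat overlapped from Nrp1 (558 ± 190) down to Nrp2 (93.5 ± 11.7), and Vegfa was lowest at 15.1 ± 2.60.

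**Figure D5:**
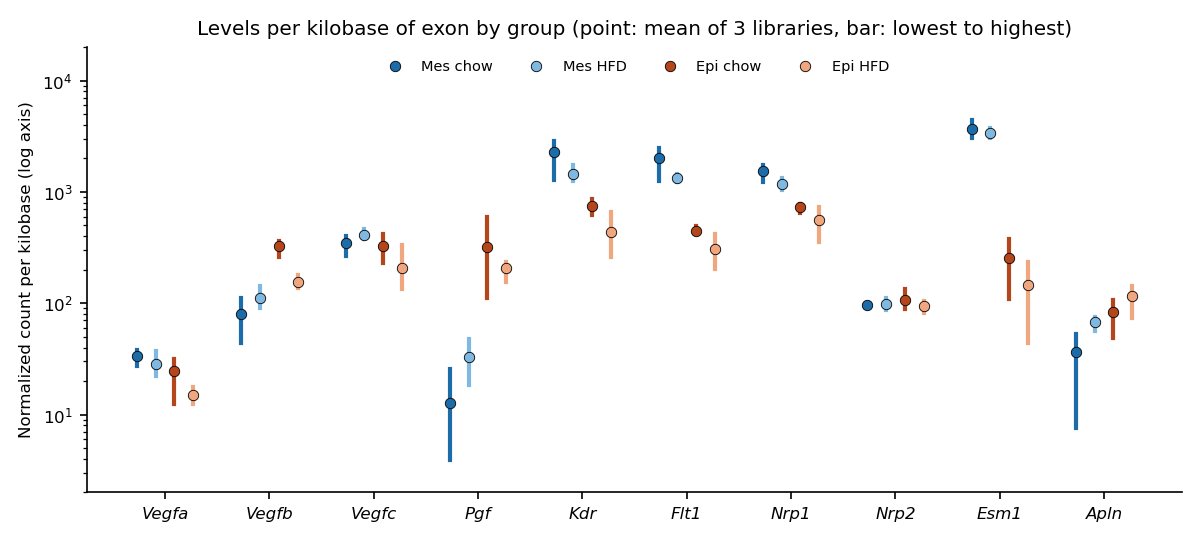
Normalized counts per kilobase of merged exon (log axis) for the 10 genes in each of the 4 groups; points are means over 3 libraries and lines run from the lowest to the highest library. Esm1 is first in mesentery and in the lower part of the order in epididymal fat, and Vegfa is last or near last in each group.

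Genes around the members were taken from 5 lists. Their counts stand against 12.8% of all genes called between the tissues on chow and 8.34% on high fat diet. Of 15 other family, receptor and partner genes 2 rose and 5 fell in epididymal fat on chow, and 1 rose and 4 fell on high fat diet. Vegfd, a second ligand of VEGF receptor 3, rose by 2.87 on chow (adjusted p = 0.00692) and 3.28 on high fat diet (adjusted p = 0.00453). Without library C of mesentery the chow value of Vegfd was 2.22. Its libraries ran from 5.63 to 46.4 normalized counts in mesentery and from 84.6 to 325 in epididymal fat. Flt4, which encodes VEGF receptor 3 and is itself one of the lymphatic markers, was lower by -0.80 (adjusted p = 0.0231) and -0.91 (adjusted p = 0.0168). The semaphorins Sema3c and Sema3f, neuropilin ligands, were lower too, Sema3f by -1.53 on chow (adjusted p = 0.000230) and -1.28 on high fat diet (adjusted p = 0.00131). Sema3c changed by -1.88 (adjusted p = 0.00248) and -1.61 (adjusted p = 0.00976), while Itgb3, an integrin subunit, passed on chow (-1.42, adjusted p = 0.0402; on high fat diet adjusted p = 0.221). Plxna2, a semaphorin receptor, fell by 1.28 on chow (adjusted p = 0.0146) and 1.35 on high fat diet (adjusted p = 0.0163). The median of the list was -0.33 and 0.06, against -0.08 and 0.06 for all genes tested.

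Of 30 genes of signal transduction below the receptors, 1 rose and 4 fell on chow and 0 rose and 3 fell on high fat diet, with medians of 0.27 and 0.04. With 12.8% and 8.34% of all genes called, these counts are near the general share and are not read as a trait of the list. Plcg1, the phospholipase that binds activated VEGF receptor 2, was lower by -1.17 (adjusted p = 0.0144) and -1.25 (adjusted p = 0.0152). Ptk2, focal adhesion kinase, was lower by -0.99 (adjusted p = 0.00166) and -0.71 (adjusted p = 0.0195). Pxn (paxillin) was lower on chow (-0.72, adjusted p = 0.0430), and the adaptor Nck1 on chow (-0.65, adjusted p = 0.0341) and on high fat diet (-0.66, adjusted p = 0.0436). Prkcb, a protein kinase C gene, was higher on chow by 2.94 (adjusted p = 0.0110), and by 3.55 without library C of epididymal fat. The Prkcb call was lost without library A (2.49, adjusted p = 0.0653) or B (2.77, adjusted p = 0.0531) of epididymal fat. edgeR called 0 of this list on high fat diet, and DESeq2 called 5.

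Of 16 brakes on VEGF receptor signalling and angiogenesis, 1 rose and 5 fell on chow and 1 rose and 3 fell on high fat diet, with medians of -0.20 and -0.17. The shares called over all genes were 12.8% and 8.34%. Thbs1, the anti-angiogenic matrix protein thrombospondin 1, fell by 3.10 on chow (adjusted p = 1.15e-05) and by 2.06 on high fat diet (adjusted p = 0.000399). Its means were 2883 ± 421 and 1580 ± 355 normalized counts in mesentery on chow and high fat diet, and 349 ± 130 and 379 ± 82.0 in epididymal fat. Spry4, an inhibitor of receptor tyrosine kinase signalling that is itself induced by it, fell by 2.25 (adjusted p = 4.78e-05) and 1.75 (adjusted p = 0.000494). Its relative Spred1 fell on chow (-1.34, adjusted p = 0.00444). Ptprb, the endothelial phosphatase VE-PTP, was lower by -1.09 on both diets (adjusted p = 0.0184 and 0.0262). Ptpn1, a phosphatase, was higher on high fat diet (0.90, adjusted p = 0.0285). edgeR called 2 of the list on high fat diet.

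Of 17 other tip cell genes 3 rose and 8 fell on chow, and 1 rose and 7 fell on high fat diet, with medians of -0.60 and -0.84. Among all genes tested 12.8% and 8.34% were called. Of the 12 pan-endothelial markers 6 and 7 were called, with medians of -0.61 and -0.87, so a lower median was not particular to tip cell genes. The largest fall among the 17 tip cell genes was that of Igfbp3, a secreted binding protein for insulin-like growth factors. It fell by 3.33 on chow (adjusted p = 0.000119) and 4.05 on high fat diet (adjusted p = 3.40e-05). Its libraries held 21095 to 41797 normalized counts in mesentery and 694 to 4737 in epididymal fat. Mcam fell by 1.30 on chow (adjusted p = 0.00426) and 0.92 on high fat diet (adjusted p = 0.0387), and the basement membrane collagen gene Col4a1 by 1.28 on chow (adjusted p = 0.00589). Pdgfb, the growth factor by which tip cells recruit pericytes, fell by 1.20 (adjusted p = 0.0217) and 1.12 (adjusted p = 0.0412), and Cd34 by 0.98 (adjusted p = 0.0345) and 1.08 (adjusted p = 0.0303). Adm, which encodes adrenomedullin, rose instead, by 3.88 on chow (adjusted p = 0.000751) and 2.08 on high fat diet (adjusted p = 0.0429); without library C of mesentery the chow value was 4.76. Aplnr, the apelin receptor, was 0.90 higher on chow (adjusted p = 0.0248) and differed by -0.10 on high fat diet (adjusted p = 0.904). Aplnr is counted in the list of family, receptor and partner genes and not among these 17. Dll4, the Notch ligand of tip cells, passed neither test, with -0.26 and -0.34, nor did Angpt2, with 0.61 and -0.13. Tip cell genes therefore did not all share the direction of Esm1. edgeR called 2 of the list on high fat diet and DESeq2 11.

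Of 16 sensors and targets of the hypoxia response, which is known to induce Vegfa, 15 were tested, and 3 rose and 0 fell on chow and 2 rose and 0 fell on high fat diet. As 12.8% and 8.34% of all genes were called, counts this small are not read as a trait of the list. Bnip3, a mitophagy receptor, rose by 2.01 on chow (adjusted p = 0.000731), the oxygen sensor Egln1 by 0.96 (adjusted p = 0.0258), and Pdk1, a kinase that limits pyruvate oxidation, by 0.92 (adjusted p = 0.0158). On high fat diet Pdk1 rose by 0.83 (adjusted p = 0.0363) and Ldha, lactate dehydrogenase A, by 0.77 (adjusted p = 0.0435). The medians were 0.21 and 0.03. edgeR called 0 of these on high fat diet. Across the 5 lists the calls that held least often were those of Itgb3 and Pxn on chow, called under 4 and 7 of the 16 alternatives, and of Nck1 (6), Ldha (7), Pdk1 (8), Cd34 (8), Adm (9) and Ptprb (9) on high fat diet. Those of Thbs1, Spry4, Igfbp3 and Vegfd held under all 16 on both diets.

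Diet called 0 genes of each of the 5 lists in either tissue by limma. With unadjusted p under 0.05 there were 2, 3, 2, 2 and 2 genes in mesentery and 1, 4, 3, 3 and 4 in epididymal fat, in the order of the lists above. The lists held 15, 30, 16, 17 and 15 tested genes. Of all genes 6.15% in mesentery and 6.94% in epididymal fat had such p values. edgeR called 0 in every list. DESeq2 called Spry4 in mesentery (-1.09, adjusted p = 0.00200). In epididymal fat it called Spry1 (-1.05, adjusted p = 0.00221), Nos3 (-0.68, adjusted p = 0.0179), Igfbp3 (-1.21, adjusted p = 0.0377) and Ndrg1 (-0.59, adjusted p = 0.0236), all lower on high fat diet. For these genes limma gave adjusted p values of 0.314, 0.0936, 0.163, 0.209 and 0.235, in that order. Spry4 and Spry1 are Sprouty inhibitors of receptor kinases, and Nos3 is endothelial nitric oxide synthase.

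Over the 12 libraries the genes whose levels followed Kdr most closely, among 9820 ranked, were Ptprb (Pearson's r 0.985), Fgd5 (0.983), Tek (0.982), Hdac7 (0.982) and Snrk (0.981). The closest to Esm1 were Ramp3 (0.993), Igfbp3 (0.987), Terf1 (0.987), Prickle1 (0.986) and Spns2 (0.983). Ramp3, which encodes a co-receptor for adrenomedullin, had means of 5659 and 4891 normalized counts in mesentery on chow and high fat diet and 122 and 72.9 in epididymal fat. Among the members Kdr, Flt1 and Nrp1 correlated at 0.967 or above, and Pgf with Flt1 at -0.898. The 12 points of each correlation share the tissue difference and the scaling of their library.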

How the data were processed

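The authors deposited 1 table for 12 libraries whose values are, per the file headers, normalized counts of each gene (a signal at or above 0). The submitters' processing notes name STAR 2.7.9a, featureCounts, Subread, DESeq2 1.34.0 and mm39, without roles; strand and annotation are not given in the sources used here. Every value was a whole number of reads (tolerance 1e-06; 100% of values) times 1 step per library, so reads were recovered for the count tests. The 22238 of 27825 genes whose mean reached 10 entered limma 3.58.1 (R 4.3.3; lmFit and eBayes with trend) on log2(normalized count + 1), with 4 group means and Benjamini-Hochberg adjustment over all genes tested; called means adjusted p under 0.05. edgeR 4.0.16 and DESeq2 1.42.0 on the recovered reads, other scalings, filters and pseudocounts, a replicate block and leaving out each library were alternatives. The limma fit was tested on simulated data, and the other steps were not. Ratios used exact permutation tests.

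The members and lists were chosen with earlier results of these data known. From each list up to 4 called genes per contrast with the largest change were named, and for Kdr and Esm1 the 5 most correlated genes with a mean of at least 100; others named (Flt4, Aplnr, Dll4, Angpt2, and those DESeq2 called) were chosen after their values were seen. Promoters came from RefSeq on GRCm38.p6, another build than mm39, and were matched by symbol.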

Additional observations from a re-analysis of the deposited data

How the results depend on the processing

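Of 682 alternative values of member log2 changes, 636 kept direction and side of the threshold, 13 lost the call, 14 gained it and 19 turned direction; the cause was not tested. No named pathway gene turned direction in 576 values, and 114 lost the call; of the interactions only those of Vegfb and Vegfc are in these counts. Members called in epididymal fat by diet numbered 1 by DESeq2 against 0, and by tissue on high fat diet 3 to 5 without 1 library. The direction turned in mesentery by diet for Nrp2 (-0.0999 within libraries 50 to 53; -0.0709 to 0.11 without 1 library), Vegfb (-0.0396 within 50 to 53) and Esm1 (0.0050 rescaled to the same total; -0.27 to 0.00824 without 1 library). By diet in epididymal fat it turned, rescaled to the pan-endothelial markers, for Nrp1 (0.0476), Nrp2 (0.30) and Pgf (0.17; -0.92 to 0.30 without 1 library). Between tissues on chow it turned for Nrp2 (-0.0181 to 0.27 without 1 library) and Vegfc (0.12 rescaled to the pan-endothelial markers, 0.19 within 50 to 53, -0.30 to 0.14 without 1 library). On high fat diet it turned for Nrp2 (0.55, 0.12 and -0.16 to 0.0286 in the same order). With the deposited scaling all of these were uncalled; rescaled to the pan-endothelial markers that of Nrp2 on high fat diet was called (adjusted p = 0.0385). Genes called over all alternatives ran from 1 to 154 for diet in mesentery, 23 to 546 for diet in epididymal fat, 1516 to 4349 and 728 to 4988 for tissue on chow and on high fat diet, and 1 to 133 for the interaction, against 3, 122, 2843, 1854 and 1. No pairing was established: the labels do not say that a number marks the same mice, and the deviations of the 6 same-numbered pairs between tissues correlated at 0.0273, 0.53 and 0.583 on chow and -0.149, 0.146 and -0.115 on high fat diet. With the replicate block 7 members were called on chow and 6 on high fat diet, adding Apln (adjusted p = 0.0167) and Vegfc (0.0371), and 0 by diet. The number range as a covariate likewise gave 7 and 6 members, and 3706 genes on chow. Depth limits the lowest values: Pgf and Apln fell to 10 and 17 reads in a library.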
